A study of Mus musculus with 18 samples.

Results

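Between day 3 (72 h) and day 5 (120 h) mouse gastruloids without doxycycline lost the transcripts of pluripotency and of the primitive streak and gained those of neural tube, somite and trunk Hox genes. The comparison took the 3 control libraries of day 5 and the 3 control libraries of day 3, which are 6 of the 18 libraries of the study. Gastruloids are stem cell aggregates that develop embryo-like tissues in suspension. They were grown from RHKI, an E14Tg2a mouse embryonic stem cell line with an HA-tagged Rnaseh1 knock-in that doxycycline (Dox) can induce, after culture in 2i/LIF medium, which holds cells in naive pluripotency. All groups used here carry this knock-in, and the control groups got no Dox. The 3 control libraries of day 0 (0 h) are given for context, and the 9 Dox libraries enter the fit and a comparison of the Dox course with the control course. By their labels all Dox groups got the same dose for the same treatment time. That time is shorter than the span from day 0 to day 5, so the Dox course is not one of continuous Dox. When Dox was given within the course is not stated in the labels. Whether RHKI is a single clone, what drives the knock-in gene and how many gastruloids made up a sample are not given in the sources used here.

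As background, the mouse epiblast cells that form mesoderm and endoderm leave pluripotency through the primitive streak, where Wnt, Nodal and FGF signals act together. Cells near the streak then extend the body as a tailbud, from which trunk neural tube and paraxial mesoderm arise, and the paraxial mesoderm divides into somites. Somites make retinoic acid, which is known to oppose tailbud FGF signalling and to switch on Hox genes and neural genes. Hox genes lie in 4 clusters and are known to be switched on in the order in which they lie, from the anterior paralogues to the posterior ones.

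The 6 libraries held 28025314 to 38128366 estimated counts each, and 17795 genes were tested. At day 5, 5637 genes were higher (31.7% of those tested) and 5886 were lower (33.1%) at an edgeR adjusted p under 0.05, so that 64.8% changed in either direction. At the unadjusted 0.05 level 12004 genes passed. At least 2-fold changes were found for 2254 higher and 2776 lower genes, and at least 16-fold changes for 379 higher and 635 lower genes. With this many genes called, each list below was read against 31.7% higher, 33.1% lower and a median log2 fold change of -0.01 over all tested genes. The first principal component of the 6 libraries held 91% of the variance and separated the days, and the second held 2.72%. Levels are given as TPM, which is scaled per transcript length, for libraries 1, 2 and 3 of a day, and log2 fold changes are day 5 over day 3 with their standard error (SE). Nothing in the labels says that the 3 samples of a day are separate cultures, so how far they differ may be technical. The p-values reflect only such differences within groups, with a spread estimated from all 18 libraries. In such bulk samples fewer cells of a type and less RNA per cell cannot be told apart. Rnaseh1 itself, the knock-in gene, had 24.0, 22.8 and 22.9 TPM at day 5 and 24.8, 25.9 and 26.8 TPM at day 3, and its log2 fold change of -0.25 (edgeR adjusted p = 0.0096) was not past the threshold with limma on log2 TPM.

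The 15 genes with the largest rise included the neural tube gene Dbx1, the somite gene Meox1 and 4 protein-coding Hox genes. Dbx1, a homeobox transcription factor of interneuron progenitors in the spinal cord (chromosome 7, 49631499 to 49636849), had 317, 260.3 and 284 TPM at day 5 and no count in the 3 libraries of day 3. Against a floor of 3 counts per library this was at least 3684-fold higher (edgeR adjusted p = 6e-15). Hoxd3, a Hox gene of an anterior paralogue group (chromosome 2, 74711927 to 74748442), had 90.4, 81.5 and 81.9 TPM at day 5 and 0, 0.05 and 0.02 TPM at day 3, which rests on a total of 2 counts at day 3. The ratio of its totals was 7006, with an exact 95% counting interval of 1939 to 57856. Meox1, a homeobox gene of somites, had 52.0, 55.5 and 48.5 TPM at day 5 and 0.02, 0.02 and 0 TPM at day 3. These genes were close to silent at day 3 and had high, closely spaced values in all 3 libraries of day 5. Bmp3, a secreted BMP family ligand, had 5.86, 4.62 and 5.20 TPM at day 5 and no count at day 3, which made it at least 197-fold higher. Foxc2, a forkhead factor of paraxial mesoderm, had 12.7, 12.4 and 11.7 TPM at day 5 and 1 count in all at day 3. Hoxb8, Hoxb9 and Hoxc8 were also among the 15. The other members were Fam181a, Vit, Islr, ccdc198, Foxe3, a forkhead factor known from the lens, and the noncoding genes Pantr1 and Hoxb5os. Hoxb5os overlaps Hoxb5 and Hoxb6 on the opposite strand, and since the strand setting of the counting is not given in the sources used here, its 155, 174 and 186 TPM at day 5 may hold reads of those genes. Hoxd3 overlaps Hoxd4 on the same strand.

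The 15 genes with the largest fall included the streak genes Evx1, Mixl1 and Eomes. Evx1, a homeobox gene of the posterior streak that lies on chromosome 6 at 52313498 to 52318378, was at 0 in the libraries of day 5 and had 5.33, 8.30 and 6.63 TPM at day 3, at least 126-fold lower at day 5 (edgeR adjusted p = 4.1e-10). Mixl1 and Eomes, transcription factors that specify mesoderm and endoderm in the streak, differed more between the libraries of day 3 than most genes. Mixl1 had 0, 0 and 0.02 TPM at day 5 and 6.22, 12.4 and 8.10 TPM at day 3. Eomes had 0, 0.03 and 0.08 TPM at day 5 and 11.6, 23.3 and 18.9 TPM at day 3. Their coefficients of variation at day 3 were 35.5% and 33.1%, against a median of 5.41% over the genes with at least 5 TPM, and every library of day 5 still lay far below every library of day 3. Sp5, a transcription factor and Wnt target, had 0.14, 0.05 and 0.08 TPM at day 5 and 45.5, 46.8 and 51.5 TPM at day 3. Vrtn, which in the pig is known for a variant that changes vertebra number, had 0.47, 0.05 and 0.04 TPM at day 5 and 69.5, 75.6 and 73.0 TPM at day 3. Pou5f1, L1td1, Lefty1 and Tdgf1, treated below, were also among the 15, together with Foxi3, Mab21l2, Trp73, the acetylcholine receptor gene Chrna9, the glutamate receptor gene Grm6 and the lipoxygenase gene Alox15. The rule that chose both sets asked for no overlap between the libraries of the 2 days, which 71.3% of all tested genes met in CPM.

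**Figure D1:**
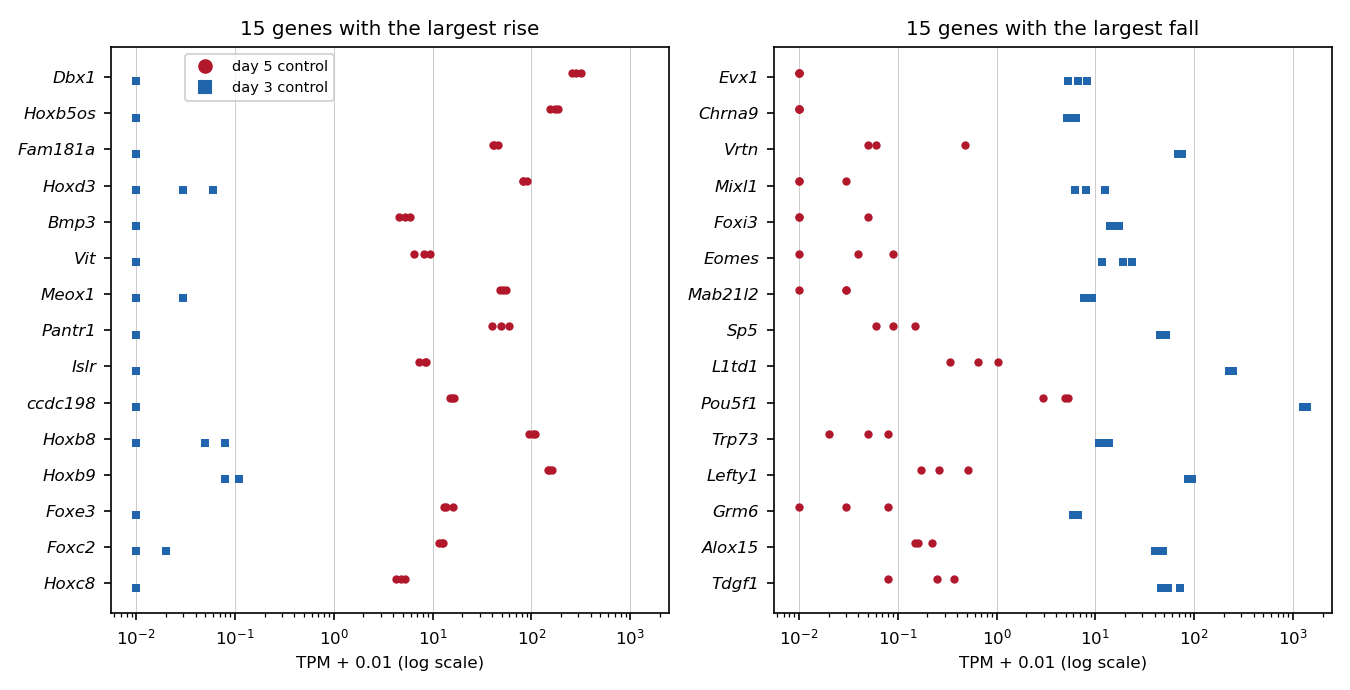
TPM plus 0.01 on a log scale for the 15 genes with the largest rise (left) and the 15 with the largest fall (right), 1 point per library, circles for day 5 and squares for day 3. The 30 genes were chosen to have no overlap in CPM between the 2 days, which 71.3% of all tested genes met. Dbx1 (317, 260.3 and 284 TPM at day 5, 0 at day 3) and Pou5f1 (5.33, 4.91 and 2.93 TPM at day 5, 1269, 1376 and 1373 TPM at day 3) show the size of the changes.

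The starts of Dbx1, Hoxd3 and Evx1, transcription factor genes among the strongest changes in either direction, are shown as the 250 bases before the RefSeq start on GRCm38.p6. Mixl1 is named only. Dbx1 lies at chr7:49636836-49637085 on the minus strand, Hoxd3 at chr2:74711743-74711992 and Evx1 at chr6:52313248-52313497, both on the plus strand. No capitals appear, since the direct repeat described below with the retinoic acid genes is not in these letters.
Dbx1: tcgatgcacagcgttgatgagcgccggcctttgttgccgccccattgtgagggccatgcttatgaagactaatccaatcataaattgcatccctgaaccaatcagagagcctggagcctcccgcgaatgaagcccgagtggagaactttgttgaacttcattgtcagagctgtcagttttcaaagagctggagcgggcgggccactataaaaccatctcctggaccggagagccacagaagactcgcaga
Hoxd3: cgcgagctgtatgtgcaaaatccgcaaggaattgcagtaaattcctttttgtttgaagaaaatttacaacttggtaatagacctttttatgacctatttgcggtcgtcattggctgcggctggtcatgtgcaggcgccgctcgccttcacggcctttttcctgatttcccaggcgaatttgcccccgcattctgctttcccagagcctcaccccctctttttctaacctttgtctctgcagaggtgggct
Evx1: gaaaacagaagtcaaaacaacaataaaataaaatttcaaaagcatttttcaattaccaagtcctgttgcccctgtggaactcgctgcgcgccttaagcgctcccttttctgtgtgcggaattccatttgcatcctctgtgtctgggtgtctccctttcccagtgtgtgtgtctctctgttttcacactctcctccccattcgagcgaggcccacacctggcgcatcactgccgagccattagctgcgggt

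Pluripotency transcripts fell further between day 3 and day 5. Of 10 core pluripotency genes 8 were lower and 1, Sox2, was higher, with a median log2 fold change of -3.73. Pou5f1, which encodes Oct4 (chromosome 17, 35506018 to 35510772), had 5.33, 4.91 and 2.93 TPM at day 5 and 1269, 1376 and 1373 TPM at day 3, a log2 fold change of -8.51 (SE 0.18, edgeR adjusted p = 1.5e-17). At day 0 it averaged 1279 TPM, near its level at day 3. Nanog had 1.19, 0.87 and 0.64 TPM at day 5 and 169, 179.5 and 164 TPM at day 3, and L1td1, an RNA-binding protein of stem cells, had 1.03, 0.64 and 0.33 TPM at day 5 and 227, 246 and 246 TPM at day 3. All 3 day 5 libraries were low in each of these genes. Sall4 and Lin28a fell less, by 1.37 and 1.381 on the log2 scale, to means of 32.9 and 119 TPM at day 5. Trim71, a stem cell RNA-binding protein, had 42.6, 39.5 and 43.6 TPM at day 5 and 40.1, 39.4 and 37.9 TPM at day 3 (log2 fold change -0.01, edgeR adjusted p = 0.95). Sox2, which also marks neural progenitors, rose to 222, 201 and 214 TPM at day 5, against 22.4, 22.5 and 21.6 TPM at day 3, and it averaged 303 TPM at day 0.

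Of 15 naive pluripotency genes 11 were lower and 0 higher, but at day 3 their summed level was already low. The sum averaged 25.2 ± 2.39 TPM at day 5 and 195 ± 10.6 TPM at day 3 (SD, n = 3 each), against 2673 ± 49.1 TPM at day 0. Of the day 3 sum, Gbx2, a homeobox gene also expressed in the posterior embryo, made up most, with 19.6, 17.4 and 16.6 TPM at day 5 and 141, 124 and 139.8 TPM at day 3. Tdh, a threonine dehydrogenase, had 0.72, 0.75 and 0.16 TPM at day 5 and 21.6, 24.1 and 25.8 TPM at day 3, and 12 of the 15 genes averaged below 1 TPM at day 5. The number of higher members became 1 with the replicate number as a block, with DESeq2 and with library size as the only scaling. It was also 1 without the filter on low counts or without day 5 replicate 1. With the block that member was Dppa3, at 0.08, 0.18 and 0.44 TPM at day 5 with no count at day 3. Genes of formative and primed epiblast, the stage between naive cells and the streak, fell in 9 of 11 cases. Tdgf1, the Nodal coreceptor Cripto, had 0.24, 0.36 and 0.07 TPM at day 5 and 46.2, 71.9 and 54.8 TPM at day 3. Fgf5, an epiblast ligand, had 0.41, 0.63 and 0.89 TPM at day 5 and 51.1, 62.6 and 51.5 TPM at day 3, and Dnmt3b, a DNA methyltransferase, had 30.7, 28.6 and 29.2 TPM at day 5 and 309.8, 318 and 324 TPM at day 3. Against this direction rose Sox3, a factor of epiblast and neural progenitors, to 173, 179 and 177 TPM at day 5, against 42.6, 37.4 and 41.8 TPM at day 3, and the Wnt modulator Sfrp2, to 109, 105 and 109 TPM at day 5, against 34.1, 34.4 and 36.7 TPM at day 3.

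Of the 36 gene lists, that of the primitive streak had the largest share of lower genes. Of its 15 genes 13 were tested, 12 were lower and 0 higher, and the median log2 fold change was -6.96. The summed level averaged 14.5 ± 0.723 TPM at day 5 and 1148 ± 115.5 TPM at day 3 (SD, n = 3 each). T, which encodes Brachyury (chromosome 17, 8434423 to 8442496), had 6.11, 7.32 and 6.78 TPM at day 5 and 529, 685 and 582 TPM at day 3. Fgf8, the FGF ligand of streak and tailbud, had 1.41, 1.89 and 1.49 TPM at day 5 and 132, 173 and 169.5 TPM at day 3. Wnt8a, a Wnt ligand of the posterior embryo, had 0.84, 0.93 and 1.42 TPM at day 5 and 205, 199.5 and 209.6 TPM at day 3. Every library of day 5 lay far below every library of day 3 in each of these 3 genes, where 71.3% of all tested genes had no overlap in CPM. Lhx1 was the tested member not past the threshold, with 0.67, 0.60 and 0.33 TPM at day 5 and 0.15, 0.42 and 0.14 TPM at day 3. Mesp1 and Cer1 had too few counts to be tested. Genes of tailbud and neuromesodermal progenitors fell as well, in 7 of 12 tested cases, with 3 higher and a summed level of 58.3 ± 2.44 TPM at day 5 and 995 ± 88.8 TPM at day 3. Nkx1-2 had 2.61, 2.35 and 2.26 TPM at day 5 and 127, 112 and 101 TPM at day 3, and the caudal homeobox gene Cdx1 had 0.20, 0.43 and 0.32 TPM at day 5 and 57.2, 56.5 and 54.5 TPM at day 3. Cdx4 had no count at day 5 and was not tested. The 3 higher members were Gdf11, a ligand known for the trunk to tail transition, with 20.03, 17.7 and 18.9 TPM at day 5 and 4.28, 4.02 and 4.37 TPM at day 3, Cyp26a1, and Greb1, whose log2 fold change of 0.40 was not past the threshold with limma on log2 TPM.

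Somite genes rose in 15 of 17 tested cases, with a median log2 fold change of 4.51. After Meox1 and Foxc2, Uncx, a homeobox gene of the posterior part of each somite, had 7.73, 7.16 and 7.07 TPM at day 5 and 0.06, 0.02 and 0.03 TPM at day 3. Tcf15, a transcription factor of the epithelial somite, had 31.0, 32.9 and 26.6 TPM at day 5 and 3.26, 3.92 and 4.38 TPM at day 3, and Pcdh8, a protocadherin of segmenting mesoderm, had 23.0, 21.5 and 22.3 TPM at day 5 and 3.68, 4.40 and 4.13 TPM at day 3. The sclerotome genes Pax1 and Pax9, for the precursors of vertebrae, rose to lower levels. Pax1 had 2.94, 3.00 and 3.14 TPM at day 5 and 0.08, 0.13 and 0.11 TPM at day 3. Pax9 had 0.84, 0.93 and 0.87 TPM at day 5 and 0.04, 0.01 and 0.03 TPM at day 3. Myf5, the first muscle determination gene, went the other way at a very low level, with 0.06, 0.02 and 0.04 TPM at day 5 and 0.39, 0.48 and 0.33 TPM at day 3. Fst, the activin antagonist follistatin, had 20.5, 14.6 and 14.2 TPM at day 5 and 298, 316 and 274 TPM at day 3. With Fst included, the summed level of the list was lower at day 5, at 173 ± 9.26 TPM, against 306 ± 20.9 TPM at day 3. Without Fst, a split made after its values were seen, the sum averaged 157 ± 6.92 TPM at day 5 and 10.1 ± 0.287 TPM at day 3 (SD, n = 3 each).

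Genes of nascent and presomitic mesoderm were mixed, with 4 higher and 4 lower of 10 tested. Dll1, a Notch ligand, had 72.5, 62.4 and 67.9 TPM at day 5 and 7.23, 4.38 and 5.87 TPM at day 3, and Lfng, a glycosyltransferase that modifies Notch, had 82.7, 83.4 and 86.0 TPM at day 5 and 1.13, 1.44 and 1.04 TPM at day 3. Both genes also act in neural progenitors. The defining presomitic factor Tbx6 had 0.41, 0.35 and 0.35 TPM at day 5 and 0.70, 0.50 and 0.63 TPM at day 3 (edgeR adjusted p = 0.081), and Msgn1 had no count at day 5 and 1 count at day 3. Mesp2, a segmentation factor, rose at a level near 1 TPM, with 0.92, 0.64 and 0.82 TPM at day 5 and 0.21, 0.22 and 0.36 TPM at day 3. The segmentation clock gene Hes7 had at most 0.30 TPM in each of the 6 libraries.

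Neural progenitor genes rose in 18 of 19 tested cases, with a median log2 fold change of 4.22. Their summed level averaged 1719 ± 72.1 TPM at day 5 and 206 ± 11.5 TPM at day 3 (SD, n = 3 each). Pax6, a homeobox factor of neural progenitors, had 212, 218 and 219 TPM at day 5 and 0.65, 0.70 and 0.44 TPM at day 3, a log2 fold change of 8.85 (SE 0.17, edgeR adjusted p = 6.2e-18). Hes5, a Notch target that keeps progenitors from becoming neurons (chromosome 4, 154960923 to 154962371), had 182, 192 and 189 TPM at day 5 and 0.47, 0.72 and 0.80 TPM at day 3. Irx3 had 179, 171 and 177 TPM at day 5 and 2.86, 2.04 and 2.47 TPM at day 3, and Sox1, an early neural factor, had 75.1, 74.7 and 77.8 TPM at day 5 and 5.23, 2.75 and 3.54 TPM at day 3. All of these separated the days completely, as did 71.3% of all tested genes in CPM. Along the dorsal to ventral axis of the neural tube the levels differed. Dbx1, of the intermediate neural tube, stood far above the dorsal and ventral genes that follow. Dorsal Pax3 had 8.69, 7.54 and 7.13 TPM at day 5 and 0.08, 0.04 and 0.04 TPM at day 3, and dorsal Msx3 had 1.08, 1.25 and 1.11 TPM at day 5 and 0.22, 0.17 and 0.11 TPM at day 3. Ventral Nkx6-1 had 4.62, 5.10 and 5.23 TPM at day 5 and 0.22, 0.19 and 0.08 TPM at day 3, and Olig2 of motor neuron progenitors had 0.65, 0.78 and 1.11 TPM at day 5 and 0.06, 0 and 0.03 TPM at day 3. Nkx2-2, the most ventral of these, had 2 counts in all at day 5 and 20 at day 3 and was not tested. Zic5 was the member that fell, to 6.80, 3.99 and 4.6 TPM at day 5, against 40.2, 38.2 and 34.2 TPM at day 3.

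Neuronal differentiation genes rose in 13 of 20 cases, with a median log2 fold change of 1.11, mostly at low levels. Neurog2, a proneural transcription factor, had 9.06, 9.36 and 10.2 TPM at day 5 and 0.05, 0.02 and 0.02 TPM at day 3. Neurod4 had 2.49, 1.34 and 1.72 TPM at day 5 and no count at day 3, at least 39.1-fold higher. Tubb3, a tubulin of neurons, had 17.2, 17.0 and 15.3 TPM at day 5 and 6.89, 6.20 and 7.25 TPM at day 3, but 91.4 TPM on average at day 0, in stem cells. Stmn2, another neuronal cytoskeleton gene, fell to 5.56, 6.18 and 5.32 TPM at day 5, against 37.5, 37.1 and 36.4 TPM at day 3. Dcx, a microtubule protein of migrating neurons, had 0.46, 0.20 and 0.17 TPM at day 5 and 0.28, 0.31 and 0.37 TPM at day 3, so its libraries overlapped. The other member that fell was Lhx3, a motor neuron factor below 1 TPM on both days.

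Of 14 forebrain and midbrain genes 11 were tested, 5 were higher and 3 lower, and the summed level of the list was small, at 6.15 ± 0.919 TPM at day 5 and 12.4 ± 0.488 TPM at day 3 (SD, n = 3 each). Otx2, of epiblast and anterior brain, had 0.24, 0.19 and 0.04 TPM at day 5 and 7.38, 8.35 and 7.77 TPM at day 3. Dmbx1 rose to 1.58, 2.09 and 2.18 TPM at day 5, against 0.11, 0.06 and 0.06 TPM at day 3. The eye and forebrain factor Six6 had no count on either day, and Six3 had 6 counts at day 5 and 5 at day 3. The list of the anterior brain was thus low on both days.

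**Figure D2:**
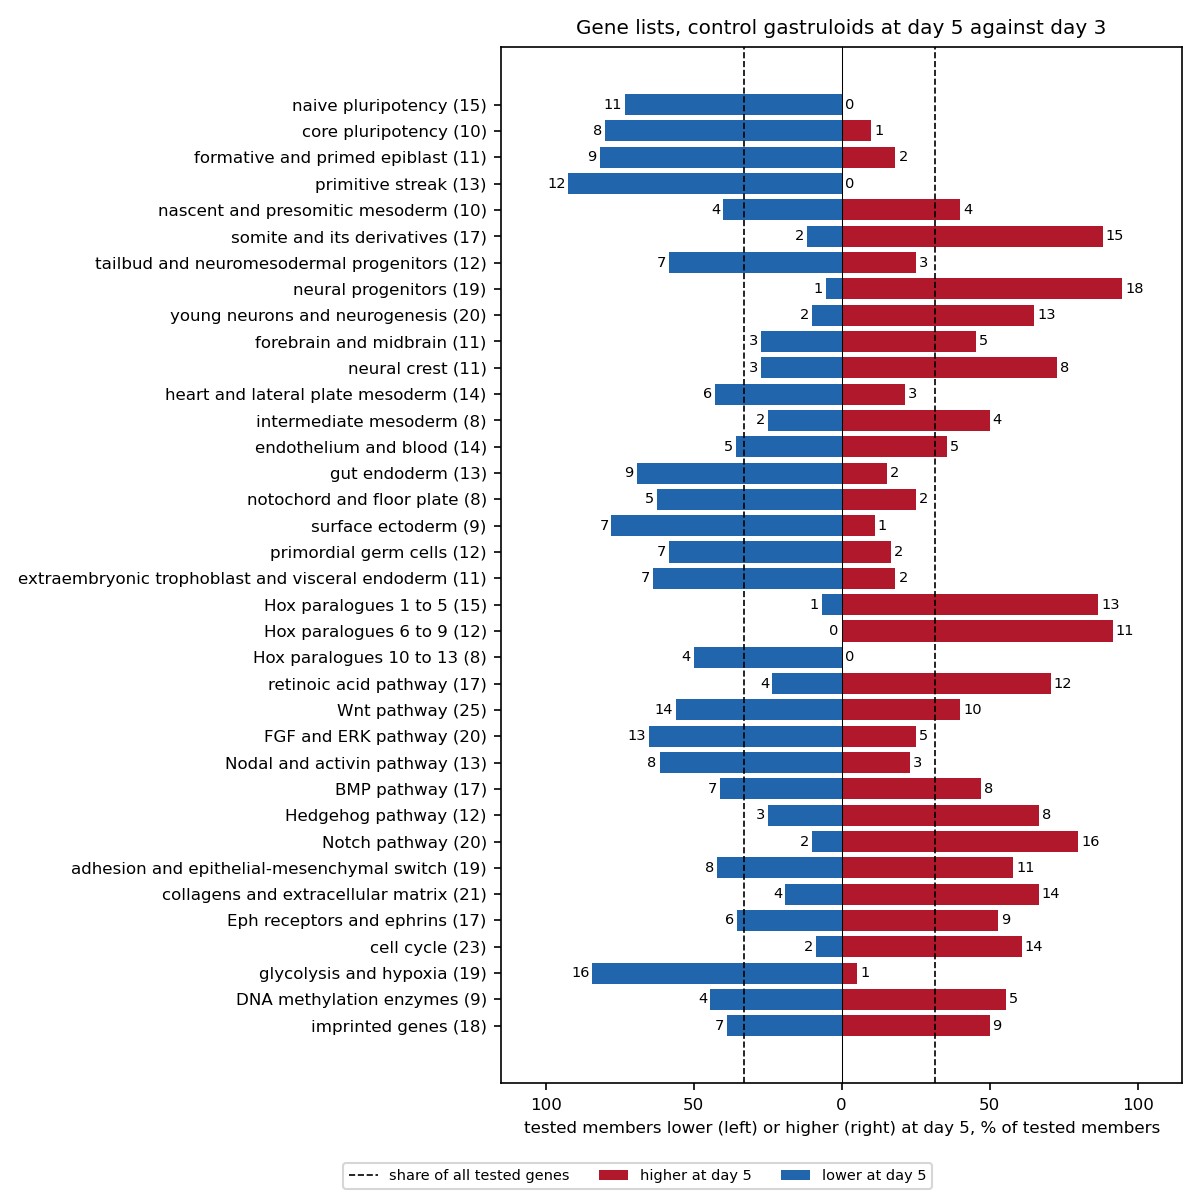
Share of the tested members of 36 gene lists (tested number in brackets) that were higher (right, red) or lower (left, blue) at day 5 than at day 3 by edgeR, in percent, with the count at the end of each bar. Dashed lines give the share over all tested genes, 31.7% higher and 33.1% lower, and the bars of neural progenitors (18 of 19 higher), somite (15 of 17 higher) and primitive streak (12 of 13 lower) reach far past them.

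Neural crest genes were higher in 8 of 11 tested cases, mostly at low levels. The defining crest factor Sox10 had 2 counts at day 5 and 7 at day 3, and Foxd3 had 1 and 72 counts. Sox9, shared with sclerotome and neural progenitors, had 6.32, 5.68 and 6.03 TPM at day 5 and 0.73, 0.68 and 0.58 TPM at day 3. Crabp1, which the list also holds, carried most of its summed level at day 5. Without Crabp1, a split made after the values were seen, the sum averaged 31.9 ± 1.63 TPM at day 5 and 14.6 ± 0.547 TPM at day 3. The lower members were Foxd3, Erbb3, with 0.24, 0.23 and 0.15 TPM at day 5 and 4.05, 3.80 and 3.38 TPM at day 3, and Tfap2a, whose fall was not past the threshold with limma on log2 TPM.

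The summed levels of the heart, blood and endoderm lists were lower at day 5 than at day 3. Over all tested genes 31.7% were higher and 33.1% lower. Of 18 heart and lateral plate genes 14 were tested, 3 higher and 6 lower, and the summed level averaged 6.35 ± 1.07 TPM at day 5 and 23.4 ± 0.517 TPM at day 3 (SD, n = 3 each). Most of the day 3 sum was Actc1, cardiac actin, with 1.42, 1.3 and 1.66 TPM at day 5 and 17.2, 15.5 and 17.0 TPM at day 3. Nkx2-5, the defining heart factor, had at most 0.18 TPM in each library of both days. The higher members, Tnnt2, Gata5 and Hand2, stayed below 1 TPM. When the 6 control libraries were fitted alone 1 member was called higher, since Tnnt2 and Hand2 then fell under the filter on low counts, and with a filter of at least 1 CPM in 3 libraries 0 were. With limma on log2 TPM 3 members were lower. The call of Hand2 was also lost with limma on log2 TPM and on leaving out any of the libraries other than day 5 replicate 2. Of 18 endothelial and blood genes 14 were tested, 5 higher and 5 lower, near the shares over all tested genes. Their summed level averaged 4.94 ± 0.805 TPM at day 5 and 21.6 ± 0.123 TPM at day 3. Lmo2, a cofactor of blood and vessel development, had 2.02, 0.88 and 0.75 TPM at day 5 and 14.5, 15.4 and 13.9 TPM at day 3. Etv2, a factor of their common precursor, had 0.72, 0.78 and 1.05 TPM at day 5 and 3.93, 3.98 and 4.61 TPM at day 3. Cdh5, the cadherin of vessels, was detected at 0.15, 0.16 and 0.18 TPM at day 5 and with 2 counts in all at day 3, and the embryonic globins Hbb-y, Hba-x and Hbb-bh1 had no count in any of the 6 libraries, which allows up to 0.102 CPM in the shallowest one. The number of higher members was 0 with a filter of at least 1 CPM in 3 libraries, and it was 3 without day 3 replicate 2 or without day 5 replicate 2, in both of which Esam lost its call. The number of lower members was 3 with limma on log2 TPM. Tal1, another higher member at 0.22, 0.23 and 0.17 TPM at day 5 and 0.10, 0.08 and 0.08 TPM at day 3, lost its call with DESeq2 and on leaving out any library other than day 5 replicate 3.

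Gut endoderm genes fell in 9 of 13 tested cases and rose in 2. The summed level averaged 29.3 ± 2.19 TPM at day 5 and 483 ± 26.2 TPM at day 3 (SD, n = 3 each). Trh, the thyrotropin-releasing hormone gene, had 1.66, 2.75 and 2.22 TPM at day 5 and 159, 184 and 204 TPM at day 3. Epcam, an epithelial adhesion molecule that epiblast also expresses, had 2.48, 2.56 and 2.52 TPM at day 5 and 159, 163 and 159.8 TPM at day 3, and Cldn6, a tight junction protein, had 0.97, 0.58 and 1.27 TPM at day 5 and 66.3, 80.3 and 69.7 TPM at day 3. Foxa2, a pioneer factor of endoderm and notochord, had 1.24, 1.42 and 1.76 TPM at day 5 and 13.4, 15.1 and 11.96 TPM at day 3. Sox17, the defining endoderm factor, had 0.20, 0.27 and 0.12 TPM at day 5 and 0.13, 0.11 and 0.22 TPM at day 3. Foxa1, among the members that rose, had 1.92, 1.76 and 2.11 TPM at day 5 and 0.11, 0.32 and 0.19 TPM at day 3.

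Notochord and floor plate genes fell in 5 of 8 tested cases, among them T, Foxa2 and Chrd. Noto, the defining notochord factor, had no count at day 5 and 3 counts at day 3. Shh, the ventral morphogen, rose at a low level, with 0.39, 0.34 and 0.30 TPM at day 5 and 0.02, 0.04 and 0 TPM at day 3, and Nog, a BMP antagonist, had 1.32, 1.44 and 1.04 TPM at day 5 and 0.03, 0.02 and 0 TPM at day 3. Of 10 intermediate mesoderm genes 8 were tested, 4 higher and 2 lower. Pax2 of kidney and mid-hindbrain had 1.93, 2.08 and 1.64 TPM at day 5 and 0.05, 0.07 and 0.03 TPM at day 3, Pax8 had 11 counts at day 5 and 18 at day 3, and Wt1 fell to 0.05, 0.05 and 0.23 TPM at day 5, against 3.76, 3.20 and 3.70 TPM at day 3. Gata3, higher in this list, varied between 0.20 and 1.54 TPM at day 5 and lost its call without day 3 replicate 3. Surface ectoderm genes fell in 7 of 9 tested cases. Esrp1, an epithelial splicing regulator, had 0.36, 0.27 and 0.22 TPM at day 5 and 39.6, 43.7 and 40.1 TPM at day 3, and Grhl2 had 0.23, 0.31 and 0.27 TPM at day 5 and 7.34, 8.22 and 7.88 TPM at day 3, while the epidermal keratin Krt14 had no count on either day.

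Germ cell genes fell in 7 of 12 cases and rose in 2, a count that was 1 when the 6 control libraries were fitted alone. Sycp3, a meiotic chromosome protein, had 0.71, 0.47 and 0.24 TPM at day 5 and 26.4, 27.1 and 28.7 TPM at day 3, and Ddx4, the helicase Vasa, had 0.11, 0.14 and 0.28 TPM at day 5 and 5.05, 5.44 and 5.65 TPM at day 3. Prdm1, a germ cell factor with other roles in mesoderm, rose to 1.19, 1.41 and 1.00 TPM at day 5, against 0.28, 0.31 and 0.21 TPM at day 3. Genes of trophoblast and visceral endoderm were lower in 7 and higher in 2 of 11 tested cases. Elf5 and Ttr, defining genes of these tissues, had no count on either day, and Dab2 rose to 4.43, 3.81 and 3.94 TPM at day 5, against 1.38, 1.66 and 1.86 TPM at day 3. The other higher member was Gata3, so that 1 was left without day 3 replicate 3, as 0 were left of the 1 higher member, again Gata3, in the surface ectoderm list.

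**Figure D3:**
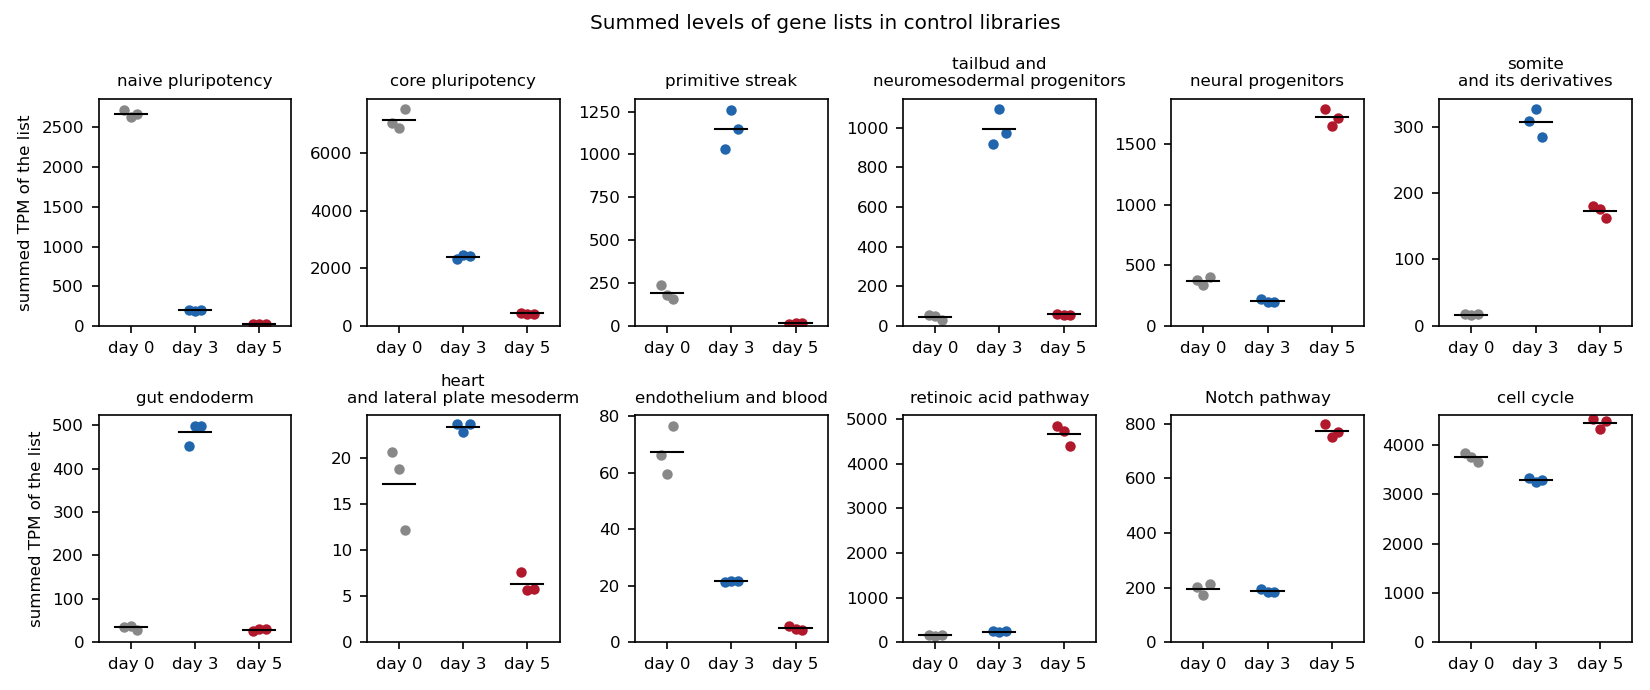
Summed TPM of 12 gene lists in each control library at day 0, day 3 and day 5, 1 point per library, with a line at the mean of the 3 libraries. Neural progenitors (1719 TPM at day 5, 206 TPM at day 3) and the retinoic acid list (4655 and 243 TPM) stand high at day 5, the streak (14.5 and 1148 TPM) and tailbud (58.3 and 995 TPM) lists have their peak at day 3, and the naive and core pluripotency lists step down from day 0 to day 3 and day 5.

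Hox genes changed from a few anterior paralogues at day 3 to nearly complete anterior and central sets at day 5. Of 39 Hox genes 24 were higher, 5 lower, 6 not past the threshold and 4 too low to test. Their summed mean level was 838 TPM at day 5, 53.9 TPM at day 3 and 56.2 TPM at day 0. By cluster the sums were 134 TPM at day 5 and 33.5 TPM at day 3 for HoxA on chromosome 6, and 486 and 19.1 TPM for HoxB on chromosome 11. They were 58.6 and 0.387 TPM for HoxC on chromosome 15, and 159.7 and 1.03 TPM for HoxD on chromosome 2. The annotated spans of 11 of the 39 overlap another Hox gene on the same strand, namely Hoxa3 to Hoxa6, Hoxc5 to Hoxc10 and Hoxd3 with Hoxd4, and how shared reads were split is not given in the sources used here.

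Paralogues 1 to 5 were higher in 13 of 15 cases and lower in 1. Hoxb1, of the most anterior group, fell to 6.73, 7.58 and 6.83 TPM at day 5, against 11.1, 10.1 and 11.6 TPM at day 3. Hoxa2 and Hoxb2, of the hindbrain, were already present at day 3. Hoxb2 had 80.2, 72.7 and 70.5 TPM at day 5 and 8.69, 6.15 and 7.37 TPM at day 3. Hoxb3, Hoxb4, Hoxc4 and Hoxd4 were below 1 TPM at day 3. Hoxb3 had 86.5, 68.6 and 80.7 TPM at day 5 and 0.42, 0.33 and 0.35 TPM at day 3. Hoxd4 had 70.6, 59.3 and 60.9 TPM at day 5 and 0.07, 0.08 and 0.24 TPM at day 3. Hoxb5 had 16.1, 14.5 and 14.8 TPM at day 5 and 1 count in all at day 3.

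Paralogues 6 to 9, of the trunk, were higher in 11 of 12 cases, with a median log2 fold change of 7.26, or 6.23 with genes without counts at day 3 set to their lower bound. Hoxb9, the most abundant Hox gene at day 5 (chromosome 11, 96271457 to 96276595), had 147, 152 and 163 TPM at day 5 and 0.07, 0.07 and 0.10 TPM at day 3, and it averaged 10.4 TPM at day 0. Hoxb8 had 109, 95.8 and 104 TPM at day 5 and 0, 0.07 and 0.04 TPM at day 3. Between these and the anterior HoxB genes, Hoxb5, Hoxb6 and Hoxb7 stood at 13.3 to 16.1 TPM at day 5. In HoxA, Hoxa7 had 10.7, 11.6 and 15.3 TPM at day 5 and 0.36, 0.35 and 0.88 TPM at day 3, but Hoxa9 had 0.18, 0 and 0.03 TPM at day 5 and no count at day 3, and it passed the threshold only without day 5 replicate 2 among the libraries left out. Hoxc9 had 0.41, 0.37 and 0.38 TPM at day 5, and Hoxd9 had 0.08, 0.14 and 0.14 TPM at day 5 and 0, 0.05 and 0.05 TPM at day 3. Hoxd9 lost its call with limma on log2 TPM and without day 3 replicate 1, day 5 replicate 2 or day 5 replicate 3. Of the 4 paralogues of group 9, those other than Hoxb9 were thus below 1 TPM at day 5.

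Paralogues 10 to 13, of the lumbar and tail region, stayed below 1 TPM in all 12 cases on both days. Of the 8 that were tested 4 were lower and 0 higher, with a median log2 fold change of -1.75, which became 0.00 with genes without counts at day 5 at their bound. The 4 were Hoxa10, Hoxa13, Hoxc13 and Hoxd13, and Hoxc13 had 0.05, 0.06 and 0.03 TPM at day 5 and 0.19, 0.11 and 0.17 TPM at day 3. With limma on log2 TPM none of the 4 was called, and all 4 fell under the filter on low counts when the 6 control libraries were fitted alone. Hoxa10 lost its call on leaving out any library other than day 3 replicate 3, and Hoxa13 without day 3 replicate 1, day 5 replicate 2 or day 5 replicate 3. At day 0 Hoxc13 averaged 12.9 TPM.

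**Figure D4:**
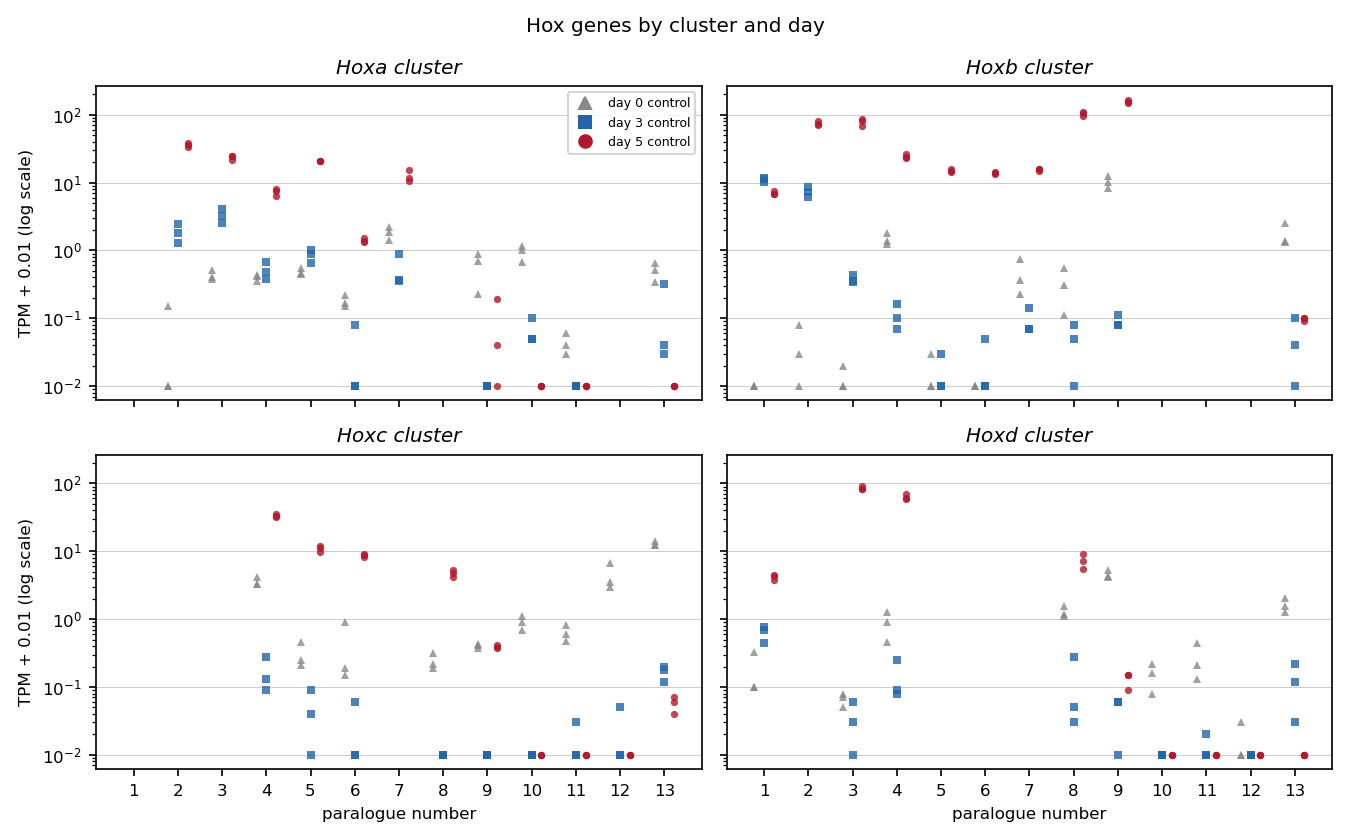
TPM plus 0.01 on a log scale for Hox genes of the 4 clusters against their paralogue number at day 0 (triangles), day 3 (squares) and day 5 (circles), 1 point per control library. At day 5 points above 1 TPM reach paralogue 7 in HoxA, 9 in HoxB and 8 in HoxC and HoxD, at day 3 they reach paralogue 3 in HoxA and 2 in HoxB, and paralogues 10 to 13 lie below 1 TPM on both days.

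Retinoic acid genes changed in 16 of 17 tested cases, 12 higher and 4 lower, and the binding proteins Crabp1 and Crabp2 stood far above the other members at day 5. Aldh1a2, the enzyme that makes retinoic acid in somites, had 9.28, 8.91 and 11.1 TPM at day 5 and 0.11, 0.07 and 0.19 TPM at day 3. Rdh10, which makes its precursor retinal, fell slightly, to 6.49, 4.80 and 4.87 TPM at day 5, against 8.49, 7.75 and 7.42 TPM at day 3. Crabp1, a cytosolic binding protein of retinoic acid (chromosome 9, 54764748 to 54773110), had 2474, 2287 and 1989 TPM at day 5 and 17.9, 10.0 and 13.7 TPM at day 3, a log2 fold change of 7.25 (SE 0.24, edgeR adjusted p = 5.5e-15). Crabp2, which carries retinoic acid to its receptors (chromosome 3, 87948666 to 87953376), had 2117, 2206 and 2159 TPM at day 5 and 37.98, 34.9 and 38.6 TPM at day 3. The receptors moved in both directions. Rarb (chromosome 14, 16430839 to 16819156), a receptor that is itself a known target of retinoic acid, had 57.8, 49.2 and 54.9 TPM at day 5 and 0.37, 0.23 and 0.20 TPM at day 3. Rarg had 7.69, 8.38 and 8.77 TPM at day 5 and 54.1, 53.9 and 54.5 TPM at day 3, and Rxrg had 0.45, 0.39 and 0.40 TPM at day 5 and 12.3, 14.1 and 14.5 TPM at day 3. Rara had 47.9, 46.2 and 45.5 TPM at day 5 and 26.1, 24.8 and 30.5 TPM at day 3. The degrading enzyme Cyp26a1, another known target, was low, with 0.42, 1.12 and 0.40 TPM at day 5 and 0, 0.21 and 0.18 TPM at day 3 (log2 fold change 2.69, SE 0.65, edgeR adjusted p = 0.0013). Cyp26b1 had 0.68, 0.57 and 0.80 TPM at day 5 and 0.03, 0.03 and 0.02 TPM at day 3. Without Crabp1 and Crabp2, a split made after the values were seen, the summed level of the list was 244 ± 8.25 TPM at day 5 and 192 ± 7.26 TPM at day 3 (SD, n = 3 each).

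The starts of Rarb and Cyp26a1, known targets of retinoic acid, were chosen before the search, and both hold a direct repeat of the half-sites that retinoic acid receptors bind. RefSeq promoters of GRCm38.p6 were searched on both strands, in the 250 bases before the start, for any pair of the half-sites AGTTCA or AGGTCA or else GGTTCA in the same direction with 5 bases between them, and no other motif was searched. Of 32851 windows 18 held such a repeat (0.0548%), and 14 of the 18 listed retinoic acid genes had a window, of which 2 held one. These 2 were Rarb and Cyp26a1, the genes chosen beforehand, so the count is no test of the list against all windows. None of the 15 Hox genes of paralogues 1 to 9 with a window held a repeat. Rarb lies at chr14:16575477-16575726 on the minus strand, with the repeat on its coding strand ending 36 bases before the start, and Cyp26a1 lies at chr19:37697558-37697807 on the plus strand, with the repeat read on the opposite strand and ending 15 bases before the start. Capitals mark the repeat with its spacer.
Rarb: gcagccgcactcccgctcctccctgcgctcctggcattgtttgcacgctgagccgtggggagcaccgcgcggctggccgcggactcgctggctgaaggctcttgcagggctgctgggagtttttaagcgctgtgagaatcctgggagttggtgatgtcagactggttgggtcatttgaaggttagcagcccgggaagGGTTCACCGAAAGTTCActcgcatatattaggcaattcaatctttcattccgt
Cyp26a1: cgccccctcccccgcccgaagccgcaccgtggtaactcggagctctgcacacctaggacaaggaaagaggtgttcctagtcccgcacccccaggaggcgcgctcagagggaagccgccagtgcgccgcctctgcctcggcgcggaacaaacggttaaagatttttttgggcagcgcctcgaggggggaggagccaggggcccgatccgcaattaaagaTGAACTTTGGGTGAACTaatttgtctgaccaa
Of all 18 genes with a repeat 5 were tested. Besides these genes, Cfap45 had a log2 fold change of 1.25, Tnfsf13b of 1.39 and Blvrb of -2.11. A match of letters is a description of the window and shows no binding.

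Notch genes were higher in 16 of 20 cases and lower in 2, with a median log2 fold change of 2.10. Among receptors Notch1 had 39.9, 30.6 and 36.9 TPM at day 5 and 6.21, 5.29 and 5.38 TPM at day 3, while Notch3, not past the threshold, had 48.8, 36.9 and 42.9 TPM at day 5 and 43.9, 39.5 and 45.0 TPM at day 3. Among ligands Dll1 and Jag1 rose, Jag1 to 27.3, 25.9 and 28.9 TPM at day 5, against 7.22, 6.44 and 6.79 TPM at day 3. Dll3 fell to 2.7, 2.35 and 2.40 TPM at day 5, against 13.6, 12.97 and 11.4 TPM at day 3, and Jag2 fell to 9.09, 6.64 and 8.03 TPM at day 5, against 13.01, 11.98 and 11.4 TPM at day 3. Among the Hes and Hey genes, Hes3 had 102, 91.6 and 96.6 TPM at day 5 and 3.31, 1.42 and 2.06 TPM at day 3. Heyl had 6.43, 6.75 and 7.33 TPM at day 5 and 0.04, 0 and 0.02 TPM at day 3. Nrarp, a feedback inhibitor, had 52.8, 45.3 and 45.9 TPM at day 5 and 10.7, 10.7 and 9.84 TPM at day 3.

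FGF genes fell in 13 of 20 cases and rose in 5, and ligands, receptors and targets moved differently. The ligands Fgf5, Fgf8 and Fgf17 fell, Fgf17 to 0.31, 0.24 and 0.13 TPM at day 5, against 5.14, 7.09 and 5.91 TPM at day 3. Fgf3 rose to 8.88, 8.68 and 9.82 TPM at day 5, against 0.16, 0.26 and 0.15 TPM at day 3, and Fgf15 to 14.02, 13.9 and 13.99 TPM at day 5, against 6.83, 5.56 and 6.17 TPM at day 3. Of the receptors Fgfr2 had 128, 129 and 143 TPM at day 5 and 6.05, 5.15 and 6.07 TPM at day 3, Fgfr3 had 61.1, 45.7 and 54.8 TPM at day 5 and 0.85, 0.58 and 0.57 TPM at day 3, and Fgfr1 fell slightly, by 0.38 on the log2 scale. All 8 listed genes that are known as targets or feedback inhibitors of ERK fell. Etv5 had 2.16, 2.16 and 1.81 TPM at day 5 and 90.8, 102 and 92.8 TPM at day 3, and Spry4 had 0.16, 0.26 and 0.16 TPM at day 5 and 6.81, 9.02 and 7.95 TPM at day 3. Dusp6, an ERK phosphatase, had 12.3, 10.9 and 12.6 TPM at day 5 and 70.2, 77.1 and 70.9 TPM at day 3.

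Nodal and activin genes fell in 8 of 13 tested cases and rose in 3, with a median log2 fold change of -3.45. Nodal had 0.44, 0.40 and 0.50 TPM at day 5 and 48.3, 57.3 and 52.2 TPM at day 3, and its antagonist and target Lefty1 had 0.51, 0.25 and 0.16 TPM at day 5 and 87.5, 93.3 and 95.7 TPM at day 3. The members that rose were Gdf11 and the receptors Acvr2a, with 19.4, 14.6 and 17.6 TPM at day 5 and 6.15, 5.82 and 5.92 TPM at day 3, and Acvr2b, with 29.7, 17.4 and 22.1 TPM at day 5 and 16.5, 10.96 and 10.99 TPM at day 3.

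**Figure D5:**
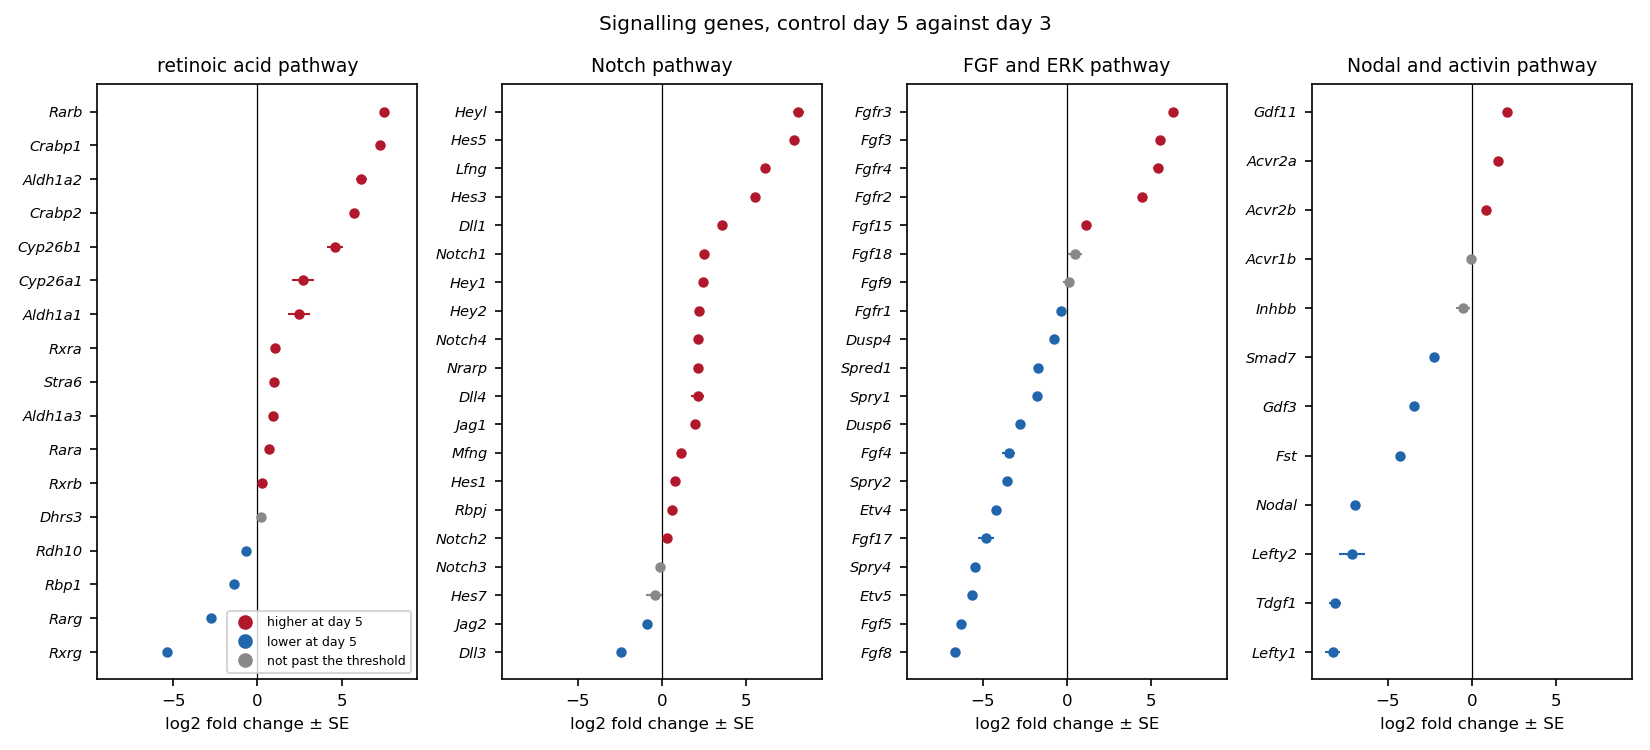
Log2 fold change of day 5 over day 3 for tested genes of 4 signalling lists, with a standard error derived from the edgeR F statistic. Red marks genes higher at day 5, blue lower and grey not past the threshold. Rarb (7.54) and Crabp1 (7.25) lead the retinoic acid genes and Heyl (8.08) and Hes5 (7.81) the Notch genes, while Fgf8 (-6.68) and Lefty1 (-8.26) are the lowest of the FGF and Nodal genes.

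Wnt genes were divided, with 10 higher and 14 lower of 25 tested. Besides Wnt8a, the ligand Wnt3 of the streak fell, to 1.94, 1.64 and 2.13 TPM at day 5, against 18.1, 20.7 and 22.1 TPM at day 3, and the ligands Wnt7a and Wnt7b of neural tissue rose. Wnt7a had 2.51, 1.51 and 1.62 TPM at day 5 and 0, 0 and 0.06 TPM at day 3, and Wnt1, of the dorsal neural tube, had 0.22, 0.33 and 0.23 TPM at day 5 and no count at day 3, at least 3.84-fold higher. The target Axin2 fell to 27.8, 25.8 and 27.4 TPM at day 5, against 51.7, 50.4 and 51.6 TPM at day 3, the target Notum to 0.33, 0.49 and 0.69 TPM at day 5, against 22.7, 17.3 and 18.8 TPM at day 3, and the transcription factor Lef1 to 11.7, 12.2 and 11.7 TPM at day 5, against 96.0, 84.6 and 89.2 TPM at day 3. Dkk1, a Wnt antagonist, had no count at day 5 and 0.84, 0.94 and 0.75 TPM at day 3. Sfrp1, a secreted modulator, rose to 87.2, 70.8 and 78.7 TPM at day 5, against 4.37, 3.44 and 3.59 TPM at day 3.

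BMP genes were higher in 8 and lower in 7 of 17 tested cases. Bmp4 fell to 1.74, 0.80 and 0.48 TPM at day 5, against 2.00, 4.16 and 3.30 TPM at day 3, and Bmp7 fell to 4.10, 3.76 and 3.89 TPM at day 5, against 8.37, 7.49 and 7.96 TPM at day 3. All 4 Id genes, which encode inhibitors of helix-loop-helix factors, rose, with Id3 at 191, 187 and 185 TPM at day 5 and 44.6, 39.7 and 36.7 TPM at day 3, and Id2 at 32.9, 26.3 and 28.0 TPM at day 5 and 3.72, 2.27 and 2.81 TPM at day 3. The target Msx1 fell to 0.72, 1.40 and 1.42 TPM at day 5, against 4.91, 5.45 and 5.87 TPM at day 3. Hedgehog genes were higher in 8 of 12 tested cases. The coreceptors Boc and Gas1 rose most among those above 1 TPM, Boc to 40.1, 33.6 and 37.8 TPM at day 5, against 2.47, 1.97 and 2.15 TPM at day 3, and Gas1 to 145, 126 and 135 TPM at day 5, against 17.3, 15.2 and 14.4 TPM at day 3. Gli2 was among the 3 lower members, as was Gli1, a direct pathway target, with 7.08, 8.67 and 7.30 TPM at day 5 and 13.6, 11.7 and 12.1 TPM at day 3.

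E-cadherin and epithelial junction genes fell and N-cadherin rose. Cdh1, E-cadherin, had 2.15, 2.14 and 2.13 TPM at day 5 and 187, 192 and 186 TPM at day 3, a log2 fold change of -6.59 (SE 0.10, edgeR adjusted p = 4.1e-19). Cdh2, N-cadherin, had 174, 147 and 163 TPM at day 5 and 15.2, 12.2 and 11.8 TPM at day 3. The claudins Cldn3, Cldn6 and Cldn7 all fell, Cldn7 to 0.44, 0.52 and 0.66 TPM at day 5, against 31.0, 41.7 and 37.9 TPM at day 3. Vim, the filament vimentin, had 464, 411 and 418 TPM at day 5 and 78.8, 89.9 and 87.1 TPM at day 3. Of the transcription factors of the epithelial-mesenchymal switch Snai1 fell, to 2.11, 2.08 and 2.18 TPM at day 5, against 5.33, 6.42 and 5.57 TPM at day 3, and Zeb1 rose, to 19.5, 14.5 and 17.3 TPM at day 5, against 2.51, 1.65 and 1.99 TPM at day 3. In all, 11 of 19 tested members of the list were higher and 8 lower.

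Matrix genes were higher in 14 and lower in 4 of 21 tested cases. Col2a1, the collagen of notochord sheath and cartilage, had 53.7, 45.3 and 45.9 TPM at day 5 and 3.00, 2.67 and 2.86 TPM at day 3, and Fbn2, a fibrillin, had 15.4, 11.2 and 14.3 TPM at day 5 and 0.70, 0.85 and 0.81 TPM at day 3. Laminin chains moved in both directions. Lama1 had 27.4, 32.4 and 26.3 TPM at day 5 and 1.28, 2.33 and 1.28 TPM at day 3, and Lama5 had 18.4, 23.9 and 23.4 TPM at day 5 and 211, 228 and 249 TPM at day 3. Among Eph receptors, guidance molecules that also set somite borders, 9 of 17 list members were higher and 6 lower. Epha1 had 0.91, 0.77 and 1.04 TPM at day 5 and 75.3, 81.6 and 75.0 TPM at day 3, and Epha2 had 1.92, 1.63 and 1.71 TPM at day 5 and 54.8, 60.6 and 57.4 TPM at day 3. The ephrins Efnb3 and Efna5 rose, Efnb3 to 75.4, 66.2 and 69.5 TPM at day 5, against 4.42, 3.75 and 4.35 TPM at day 3.

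Cell cycle genes were higher in 14 and lower in 2 of 23 cases, nearly all by small amounts, since 2 higher and 1 lower were left where a 2-fold change was asked for. Ccnd2, a D-type cyclin, had 491, 416 and 483 TPM at day 5 and 56.6, 43.4 and 42.5 TPM at day 3. The S-phase gene Pcna had 600.4, 614 and 619.9 TPM at day 5 and 415, 426 and 412 TPM at day 3. Cdkn1a, the inhibitor p21, fell to 104, 103 and 108 TPM at day 5, against 225, 217 and 225 TPM at day 3. Ccnd1, the other lower member, had a log2 fold change of -0.26 and lost its call without day 3 replicate 1 or 3, without day 5 replicate 2 or 3 and with limma on log2 TPM. Glycolysis and hypoxia genes were lower in 16 of 19 tested cases, of which 8 fell at least 2-fold, and higher in 1. Eno1, enolase, had 1345, 1418 and 1372 TPM at day 5 and 2628, 2704 and 2835 TPM at day 3. Pfkp, a phosphofructokinase, had 2.07, 1.28 and 1.88 TPM at day 5 and 11.5, 11.2 and 12.8 TPM at day 3, and Bnip3, a hypoxia target, had 29.7, 26.8 and 22.2 TPM at day 5 and 123, 124 and 105 TPM at day 3. The exception was Slc2a1, the glucose transporter Glut1, with 532, 574 and 554 TPM at day 5 and 274, 241 and 257 TPM at day 3.

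Of 9 genes of DNA methylation 5 were higher and 4 lower, and 0 of the 5 rose at least 2-fold. Dnmt1, which copies methylation, had 168, 150.4 and 159.7 TPM at day 5 and 104, 97.3 and 105 TPM at day 3, in contrast to Dnmt3b above. Tet1, which oxidises methylcytosine, had 9.85, 4.66 and 6.04 TPM at day 5 and 20.1, 15.8 and 14.6 TPM at day 3, and its coefficient of variation of 39.2% at day 5 was the highest among the list members with at least 5 TPM. Tet3 rose to 19.6, 13.4 and 17.1 TPM at day 5, against 8.82, 7.26 and 7.61 TPM at day 3. Imprinted genes, which are expressed from a single parental copy, were higher in 9 and lower in 7 of 18 cases, and neighbours within a domain did not all move alike. Igf2, a growth factor, and the noncoding H19 beside it rose together. Igf2 had 121, 126 and 114.7 TPM at day 5 and 5.21, 3.28 and 2.90 TPM at day 3, and H19 had 29.4, 58.6 and 54.0 TPM at day 5 and 0.84, 1.00 and 1.42 TPM at day 3. In the Dlk1 domain the noncoding genes Meg3, Rian and Mirg fell, Meg3 to 278, 297 and 281 TPM at day 5, against 932, 1041 and 1074 TPM at day 3, while Dlk1 rose to 5.77, 6.18 and 6.62 TPM at day 5, against 2.07, 2.76 and 2.66 TPM at day 3. Nnat, neuronatin, had 628, 688 and 691 TPM at day 5 and 19.3, 16.4 and 17.1 TPM at day 3.

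By absolute level, whatever the fold change, the largest increase in mean TPM belonged to Crabp1, followed by Mdk and Crabp2. Mdk, the growth factor midkine, had 3026, 3217 and 3107 TPM at day 5 and 991, 943 and 1031 TPM at day 3. Mest, an imprinted gene, had 968, 927 and 964 TPM at day 5 and 36.6, 39.6 and 39.6 TPM at day 3. Marcksl1, Cdk4, Tmsb10, Tuba1b and Gnas also rose, each by less than 4-fold, and Rpl41 was in the same 10 without passing the threshold (edgeR adjusted p = 0.32), which it passed with limma on log2 TPM (log2 difference 0.19, limma adjusted p = 0.0023). The largest decreases were in genes of translation, mitochondria and glycolysis with small fold changes. Eef1a1, an elongation factor, had 11973, 12944 and 12496 TPM at day 5 and 14236, 14107 and 13955 TPM at day 3, a log2 fold change of -0.31. Rps12 fell by 0.64, Rplp1 by 0.51 and mt-Nd1 by 0.44 on the log2 scale, and Aldoa fell by 1.23. The calls of mt-Atp8 and Gm28437, also in this group, are uncertain where near-identical copies of mitochondrial genes share reads, and that of mt-Atp8 was lost with limma on log2 TPM. Of this group Pou5f1 alone had a change of more than 4-fold. The ribosomal RNA gene CT010467.1 had 1899, 1795 and 1867 TPM at day 5 and 2398, 2523 and 3868 TPM at day 3 and was not past the threshold (edgeR adjusted p = 0.42), which it passed when the 6 control libraries were fitted alone or without the filter on low counts.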

How the data were processed

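Poly(A) mRNA libraries were analysed as the authors deposited them, 1 gene table per sample with RSEM expected counts and TPM. Per the submitters' processing notes the tools were RSEM 1.3.3, STAR 2.7.10a, Trimmomatic and DESeq2 1.38.2, with GRCm38. The annotation release, the strand setting of the counting and the handling of shared reads are not given in the sources used here. Expected counts, of which 6.54% to 7.49% were not whole, were rounded. TPM values deposited by the authors were used as they stand for levels.

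All 18 libraries were fitted by group with edgeR 4.0.16 (R 4.3.3), with TMM scaling, the filterByExpr filter and the quasi-likelihood test, on 12 residual degrees of freedom. Genes at a Benjamini-Hochberg adjusted p under 0.05 over all 17795 tested genes were called. The standard error was derived as the absolute log2 fold change divided by the square root of the F statistic of this test. Alternatives used limma 3.58.1 (on log2 of TPM plus 1, and voom) and DESeq2 1.42.0. The scripts were tested on simulated data. Folds against a group without counts use a floor of 3 counts per library, and intervals and floors cover counting error only.

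The members and gene lists were chosen with earlier results of these data known. The named genes are those with the largest fold changes, 15 in each direction (no placeholder symbol, libraries that do not overlap, a mean of 5 CPM or more on the higher day), up to 3 members per list and direction with at least 1 CPM plus members against their list's majority, all Hox genes, the 10 largest increases and decreases in mean TPM, and Rnaseh1. Other list members are named for their role, after their values were seen. Some genes that these rules name are not reported here. Of 55401 gene IDs, 55141 matched the names of the reference annotation. Promoter sequences are from RefSeq, GRCm38.p6.

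The labels give the replicate number as a batch, so same-numbered samples are paired by label. Their deviations from the group means correlated at 0.014, -0.011 and 0.005 across genes, against -0.074 to 0.071 for samples with different numbers. The fit used no block, and the fit with the replicate block is an alternative.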

Additional observations from a re-analysis of the deposited data

Results flagged for a closer look

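The change between day 3 and day 5 was also compared between the Dox course and the control course, as the interaction term of the same edgeR fit. Of 17795 genes 146 differed at an adjusted p under 0.05 (0.82%), 63 with a higher and 83 with a lower log2 fold change in the Dox course, and 1479 passed at the unadjusted 0.05 level. Among the 450 tested list members 16 differed, and each is given as the Dox course's log2 fold change minus that of the control course. Outside the lists, Mdk, named above for its increase in TPM, differed by -0.49 (edgeR adjusted p = 0.028). Its log2 fold change was 1.06 in the Dox course and 1.55 in the control course.

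In the patterning genes, Pax1 of the sclerotome differed by -3.10, with a log2 fold change of 1.59 in the Dox course and 4.69 in the control course. Pax2 differed by -2.25, with 2.75 in the Dox course and 5.00 in the control course. Pcdh8 of segmenting mesoderm differed by 1.14, with 3.48 in the Dox course and 2.35 in the control course, and Tbx3 differed by -1.32. Fabp7 of neural progenitors differed by 1.04. In signalling, the Hedgehog target Gli1 differed by -1.45, with -2.30 in the Dox course and -0.85 in the control course. The FGF receptor Fgfr4 differed by -1.96, the retinal reductase Dhrs3 by -1.77 and the receptor Rarg by -0.73. Epha7 differed by 1.04.

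Among genes of epithelium, Cdh1 differed by -0.996, with -7.59 in the Dox course and -6.59 in the control course. Esrp1 differed by 0.99, with -6.34 in the Dox course and -7.33 in the control course, so that both genes fell strongly in each course. Among genes of matrix, growth and metabolism, Sparc differed by 0.65, Grb10 by -1.02, Cdkn1a by -0.75 and the glucose transporter gene Slc2a1 by -0.59. Groups of 3 libraries were not examined for single libraries far from the others.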

How the results depend on the processing

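Against 5637 higher and 5886 lower genes, the 16 other fits at the same threshold gave between 5237 and 6087 higher and between 4552 and 6077 lower genes. Leaving out 1 library gave 5241 to 5417 higher and 5474 to 5683 lower genes. Asking also for a 2-fold change left 2254 higher and 2776 lower genes. With the replicate block 5758 genes were higher and 6018 lower, and the count of naive pluripotency genes that were higher became 1, while no other list count moved by over 1.5 times and no named gene changed its call. With limma on log2 TPM 6087 genes were higher and 4552 lower. Of the 257 single-gene results none reversed under any of the 17 settings, and 53 changed their call under at least 1 of them, with 87 calls lost and 7 gained among all settings. Of the list counts 46 moved by over 1.5 times and 1178 did not, most of them counts of 5 genes or fewer. Where a 2-fold change was asked for, the 14 higher cell cycle genes became 2, the 16 lower glycolysis genes 8 and the 5 higher DNA methylation genes 0. With a filter of at least 1 CPM in 3 libraries, under which fewer genes were tested, the 5 higher forebrain and midbrain genes became 3 and the 2 higher notochord genes 1, and with limma on log2 TPM the 4 lower DNA methylation genes became 2.

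Summed as CPM instead of TPM, the ratio of day 5 to day 3 was 0.286 for core pluripotency, 0.124 for tailbud, 4.85 for neural progenitors, 0.708 for somite, 6.63 for retinoic acid, 2.39 for Notch, 0.0777 for gut endoderm and 0.35 for endothelium and blood genes. CPM is not scaled per length, so that long genes weigh more. Depth limits the posterior Hox, heart and blood genes, whose calls rest on few counts.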

Other observations

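Some genes high in stem cells were low at day 3 and high again at day 5, in time order. Sox2 averaged 303 TPM at day 0, 22.2 TPM at day 3 and 212 TPM at day 5. Vim averaged 417 TPM at day 0, 85.3 TPM at day 3 and 431 TPM at day 5. Sall1, a zinc finger factor of kidney and neural tissue, averaged 51.0 TPM at day 0, 14.7 TPM at day 3 and 50.4 TPM at day 5, and Sox21, of neural progenitors, averaged 26.8 TPM at day 0, 0.32 TPM at day 3 and 36.9 TPM at day 5. These genes were picked after their values were seen.

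By annotation class, 129 of 528 tested lincRNA genes were higher at day 5 and 130 lower. Of 382 antisense genes 112 were higher and 73 lower. Over all tested genes 31.7% were higher and 33.1% lower. The strand setting of the counting is not given in the sources used here, so reads of a gene and its antisense partner cannot be told apart.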
